A study of Sus scrofa with 6 samples.

Results

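Integrins and the focal adhesion proteins that join them to actin were followed in porcine satellite cells (PSCs) on their way to myotubes. The 49 genes were chosen by name as integrin subunits and the adaptors, kinases and actin linkers of focal adhesions, with earlier results of these data known. Of these, 41 had a row in the deposited table of 28266 rows, and 34 of them were expressed highly enough to be tested, among 14060 genes tested in all. ITGA7, ITGB5, PTK2, PXN, CRK, TGFB1I1, VASP and SORBS2 had no matched identifier and were not analysed here. This matters most for ITGA7, the main laminin-binding α subunit of mature muscle fibers.

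The cells came from limb muscle of 3-day-old male Yorkshire pigs, were cultured on Matrigel, a basement membrane extract rich in laminin and type IV collagen, and were moved to a medium with low horse serum to differentiate. In all 6 libraries the cells carried negative control (NC) siRNA, which targets no pig gene, and libraries with H19 siRNA were not analysed here. The 3 libraries of NC24h were harvested at 24 h and the 3 libraries of NC36h at 36 h of differentiation, each as replicates 4, 5 and 6. The later time is 48 h in the sample labels and 36 h in both the series title and the study, and 36 h is used here. The NC treatment is read from the letter N of the sample titles. How many animals or cultures stood behind the replicates was not given in the sources used here, so that the p-values measure only the spread between these libraries, which may be technical.

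An integrin is a pair of an α and a β subunit that spans the membrane. The α subunit largely sets which matrix protein is bound, and the tail of the β subunit binds talin and kindlin, which switch the receptor on. The complex of ILK, PINCH and parvin, the kinases FAK and SRC, and linkers such as vinculin then connect the receptor to actin. In muscle, laminin-binding integrins hold the fiber to its basement membrane, whereas fibronectin-binding integrins are typical of migrating and dividing myoblasts.

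The value of a gene was its FPKM, the number of fragments scaled to the gene length and to the library total, and for a gene of 1 kb a single fragment was worth an FPKM between 0.0457 and 0.0610. Totals implied by the FPKM values lay between 16382890 and 16908165 fragments at 24 h and between 18015798 and 21896353 at 36 h. Muscle genes marked all libraries as myogenic. The 7 matched markers of the muscle list, DES and ACTA1 among them, summed to an FPKM between 4238 and 6602 at 24 h and between 12718 and 13848 at 36 h, lowest in NC24h replicate 6. Of the 7, 5 were higher at 36 h, where 16.5% of all genes tested were. MYF5 and MYOD1 had lower means at 36 h (84.7 to 59.9 and 316 to 254) and did not pass (limma adjusted p = 0.106 and 0.133). Unlike the sum, MYF5, MYOD1 and CDH15 were highest among the 24 h libraries in NC24h replicate 6. That library stood apart from its group in many of the genes described here, and changes computed without it are given for several of those in which it was the most extreme. Lists of markers of other cells held genes at 0 beside genes with signal. PTPRC and TYROBP of leukocytes, KDR of endothelium, and KRT8 and PGR of the endometrium (the tissue named in the labelled extraction protocol) were at 0 in all 6 libraries, while CDH1, an epithelial cadherin, went from between 0.107 and 0.430 at 24 h to between 2.35 and 4.36 at 36 h. Of the other leukocyte markers, CD14 fell from between 2.13 and 3.29 to between 1.003 and 1.44 (limma adjusted p = 0.0103) and CD68 lay between 0.634 and 2.40, and endothelial PECAM1 lay between 1.015 and 1.67. The 4 matched pericyte and smooth muscle markers summed to between 101 and 125 at 24 h and between 134 and 180 at 36 h, nearly all of it from NOTCH3, which rose, while CSPG4 fell (limma adjusted p = 0.0296 and 0.00279). The part of such cells in the results was not tested. Of 7 matched fibroblast markers, PDGFRA and FBLN1 stayed under an FPKM of 1, and the list summed to between 930 and 1001 at 24 h and between 826 and 1032 at 36 h, nearly all of it from the collagen genes COL1A2 and COL3A1, which other cells also express. In bulk RNA, fewer cells of a type and less RNA per cell cannot be told apart.

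Between NC24h and NC36h, 19 of the 34 tested members changed, 6 higher and 13 lower at 36 h. The test was limma on log2(FPKM + 1) with Benjamini-Hochberg adjustment over all 14060 genes and a threshold of 0.05. The share of members that changed was 55.9%, where 50.9% of all genes tested did. The share higher was 17.6% against 16.5% of all genes, and the share lower 38.2% against 34.4%, so in this fit the members as a whole were close to the background. Their median log2 change was -0.14, beside -0.16 for all genes tested. Genes of related role are therefore set side by side in what follows. Values at 24 h and 36 h did not overlap in 23 of the 34 tested members (67.6%), the 19 that changed among them, and in 63.6% of all genes tested. The split between higher and lower depended on scaling. With libraries brought to a common median ratio over genes (median-ratio scaling), 22 of the 34 members (64.7%) changed, where 46.1% of all genes did. Of the members 10 (29.4%) were then higher and 12 (35.3%) lower, where 23.9% and 22.2% of all genes were.

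**Figure D1:**
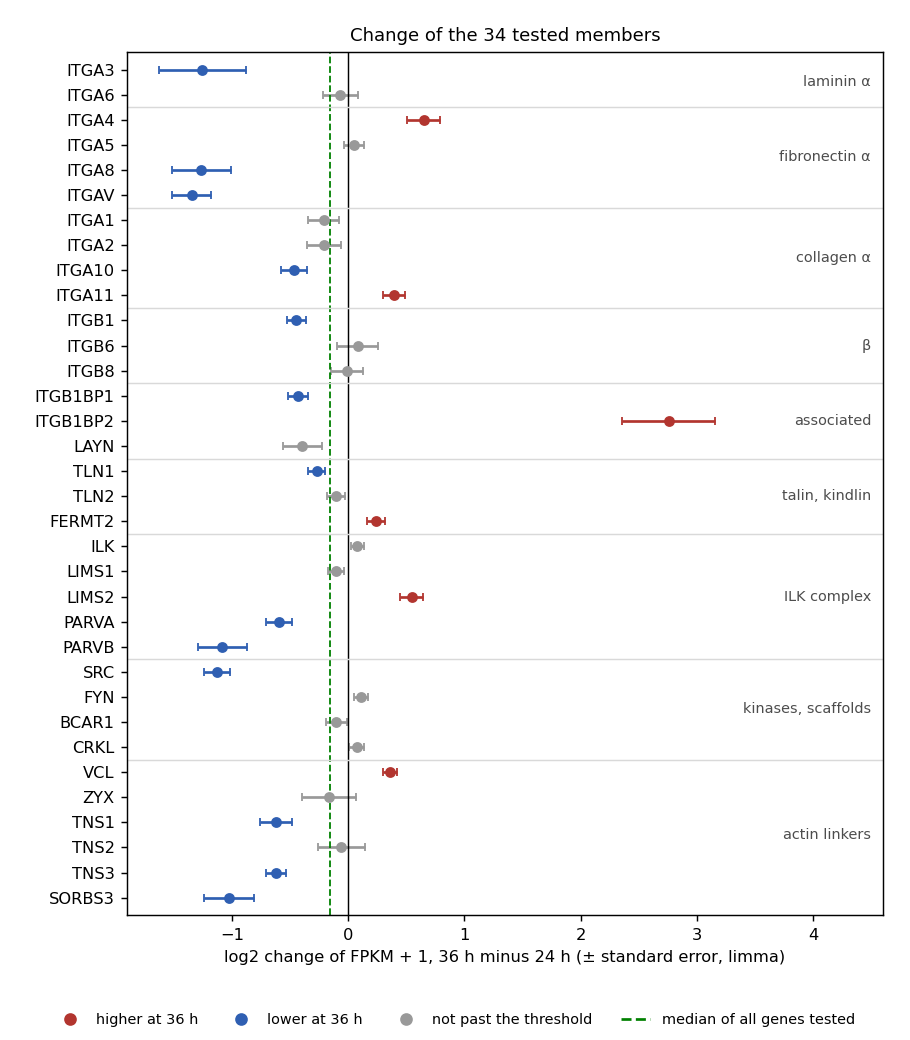
Log2 change of FPKM + 1 between 24 h and 36 h (x axis) for the 34 tested members (y axis), grouped by role, with the standard error (SE) from limma as bars. Points in red and blue are the 6 higher and 13 lower members, and the dashed line is the median of all genes tested at -0.16.

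The laminin-binding α subunits did not move together. ITGA6, which forms the laminin receptors α6β1 and α6β4, was the most abundant of the listed α subunits with a row. Its FPKM was 71.6, 76.4 and 109 at 24 h and 80.5, 81.6 and 78.4 at 36 h. The groups overlapped, and its log2 change of -0.07 (95% interval -0.43 to 0.29, limma adjusted p = 0.728) did not pass the test and turned to 0.11 with median-ratio scaling and without NC24h replicate 6. ITGA3, the subunit of the laminin receptor α3β1, was far lower, at 4.86, 7.603 and 16.4 at 24 h and 2.63, 2.64 and 3.87 at 36 h. It fell by 1.26 on the log2 scale (standard error of the fit, SE, 0.38, limma adjusted p = 0.0298), and by 0.82 without NC24h replicate 6, the library in which it was highest. Its adjusted p ranged from 0.00874 to 0.0903 over the alternatives, and the call was lost with no filter on low values (0.0513) and without NC24h replicate 5, NC36h replicate 4 or NC36h replicate 5, at 0.0622, 0.0871 and 0.0903.

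Of the fibronectin-binding α subunits, ITGAV and ITGA8 fell, ITGA5 stayed within the spread of its replicates and ITGA4 rose from a low level. ITGAV, the partner of several β subunits in receptors for fibronectin, vitronectin and latent TGF-β, had an FPKM of 65.0, 72.4 and 105 at 24 h and 31.2, 29.0 and 31.3 at 36 h. All 3 later libraries lay below all 3 earlier ones, with group means of 80.7 ± 21.1 and 30.5 ± 1.30 (SD, n = 3 each). It thus fell by 1.35 on the log2 scale (SE 0.17, limma adjusted p = 0.00165), and by 1.14 without NC24h replicate 6. ITGA8, which binds the RGD motif of fibronectin and nephronectin, had 10.002, 11.8 and 20.4 at 24 h and 4.14, 4.95 and 6.12 at 36 h, again without overlap (-1.26 on the log2 scale, SE 0.26, limma adjusted p = 0.00717), and -0.98 without NC24h replicate 6.

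ITGA5 is the α subunit of α5β1, the main fibronectin receptor. Its FPKM was 45.5, 47.4 and 55.5 at 24 h and 52.0, 51.6 and 49.6 at 36 h, so that the groups overlapped. Its log2 change was 0.05 with a 95% interval from -0.15 to 0.25 (limma adjusted p = 0.643), and 0.22 with an adjusted p of 0.0401 after median-ratio scaling, the only alternative in which it passed. ITGA4, the subunit of α4β1, which binds VCAM-1 and a segment of fibronectin, had 0.816, 0.824 and 0.505 at 24 h and 1.76, 1.41 and 1.89 at 36 h. This rise, from 240 to 684 fragments summed over 3 libraries, was 0.65 on the log2(FPKM + 1) scale (SE 0.14, limma adjusted p = 0.00972), a scale that understates it, since the ratio of the mean FPKM was 2.36.

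The collagen-binding α subunits were all low and also diverged. ITGA11, the subunit of the fibrillar collagen receptor α11β1, rose from 5.53, 5.61 and 4.94 to 8.10, 7.34 and 6.70 (log2 change 0.40, SE 0.10, with a limma adjusted p of 0.0134). ITGA10, of the collagen receptor α10β1, fell from 3.57, 3.80 and 4.72 to 2.70, 2.46 and 2.70 (log2 change -0.47, SE 0.11, with a limma adjusted p of 0.0146). Both calls were lost without NC36h replicate 5, at an adjusted p of 0.0514 for ITGA11 and 0.0595 for ITGA10. ITGA2, with an FPKM between 2.84 and 4.79, and ITGA1, between 0.746 and 1.36, did not pass (log2 change -0.21 for both, limma adjusted p = 0.270 and 0.214). The groups overlapped in ITGA2 but not in ITGA1, which had 1.05, 1.04 and 1.36 at 24 h and 0.746, 1.003 and 0.820 at 36 h. The ratio of the mean FPKM, 36 h over 24 h, was 0.841 for ITGA2 and 0.745 for ITGA1. ITGA9, whose ligands include tenascin-C and VCAM-1, was under the minimum for testing. It had 0.510, 0.376 and 0.150 at 24 h and 1.66, 1.69 and 0.548 at 36 h, from 14 and 66 fragments per group.

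**Figure D2:**
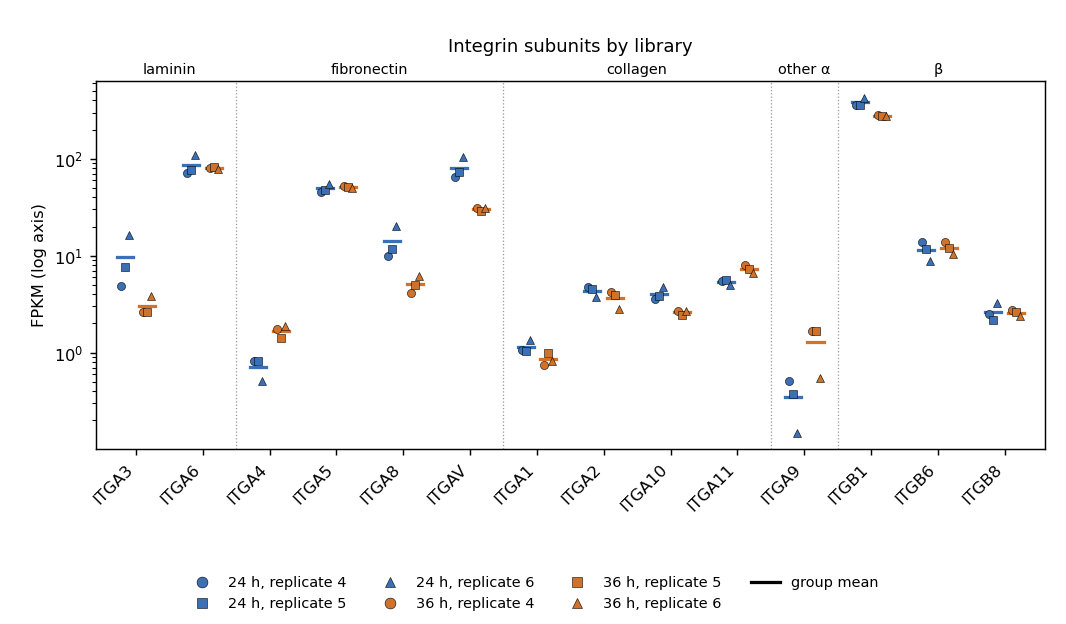
FPKM on a log axis (y axis) for integrin α subunits grouped by ligand, and for β subunits (x axis), with a point for each of the 6 libraries and a line at each group mean. ITGAV and ITGA8 at 36 h sit wholly below 24 h, while ITGA6 and ITGA5 overlap between the groups.

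Taken by class, the median log2 change was -0.66 for the 2 laminin-binding subunits tested, -0.61 for the 4 fibronectin-binding and -0.21 for the 4 collagen-binding subunits, beside -0.16 for all genes. In the laminin- and fibronectin-binding classes the median averages a subunit that fell and a subunit that did not pass the test, and the 2 medians lie close together. Shares were taken of the summed FPKM of the listed α subunits with a row, so ITGA7 entered neither the laminin-binding part nor the sum. By this measure the laminin-binding subunits held 35.9%, 36.2% and 38.9% in the 24 h libraries and 43.8%, 44.9% and 44.5% in the 36 h libraries. The fibronectin-binding subunits held 56.8% ± 0.356 at 24 h and 47.1% ± 0.893 at 36 h, and the collagen-binding subunits 6.03% ± 1.26 and 7.75% ± 0.630 (SD, n = 3 each). These shares do not depend on how libraries are scaled, and no test was made of them. The rise of the laminin-binding share, 7.41 percentage points, came to -0.96 when ITGAV was left out. ITGAV alone went from 31.4% ± 1.08 to 16.3% ± 0.760 of the sum, ITGA5 from 19.7% ± 2.12 to 27.3% ± 0.366 and ITGA6 from 33.4% ± 0.440 to 42.8% ± 0.597.

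The ratio of ITGA6 to ITGAV compares, within a library, the subunits with the highest FPKM of their classes averaged over all 6 libraries, although at 36 h ITGA5 lay above ITGAV in all 3. It was 1.10, 1.06 and 1.04 at 24 h and 2.58, 2.81 and 2.50 at 36 h. NC24h replicate 6, in which both genes were high, did not differ from its group in this ratio. The ratio rose 2.47 times, with an exact two-sided permutation p of 0.10, which is the smallest that 3 against 3 libraries can give. The ratio of ITGA5 to ITGAV, which both bind fibronectin, rose alike, from 0.628 ± 0.0876 to 1.68 ± 0.0988 (SD, n = 3 each), but was neither planned nor tested. ITGAV thus dropped against a laminin-binding and against another fibronectin-binding subunit.

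ITGB1, the β subunit shared by most of the α subunits above, was the most abundant of the listed integrin genes with a row. It had 358, 360 and 425 at 24 h and 283, 274 and 279 at 36 h. The later libraries lay lower without overlap (log2 change -0.45, SE 0.08, with a limma adjusted p of 0.00540), and the fall was 0.27 with median-ratio scaling (adjusted p = 0.0208). Because ITGAV fell further, the ratio of ITGAV to ITGB1 went from 0.210 ± 0.0331 to 0.109 ± 0.00339, while the ratio of ITGA6 to ITGB1 went from 0.222 ± 0.0290 to 0.288 ± 0.00848 (SD, n = 3 each). Neither ratio was planned or tested. ITGB6 and ITGB8, partners of ITGAV in receptors that activate latent TGF-β, did not follow ITGAV past the test. ITGB6 had a mean of 11.5 ± 2.62 at 24 h and 12.1 ± 1.78 at 36 h, with a log2 change of 0.08 (95% interval -0.34 to 0.50, limma adjusted p = 0.721). ITGB8 had 2.64 ± 0.565 and 2.59 ± 0.210, with a log2 change of -0.01 (95% interval -0.34 to 0.32, limma adjusted p = 0.956). ITGB3, the vitronectin receptor subunit, and ITGB4, the hemidesmosome partner of ITGA6, were between 0.126 and 0.481 and between 0.103 and 0.218, under the minimum for testing.

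The largest change of any member was in ITGB1BP2, which encodes melusin, a muscle protein that binds the tail of the β1 subunit. Its FPKM was 8.03, 6.95 and 2.58 at 24 h and 57.6, 46.4 and 27.6 at 36 h. Every later library lay above every earlier one, although replicate 6 was the lowest of both groups. The mean rose 7.49 times, from 213 to 1977 fragments over 3 libraries, which on the log2 scale was 2.76 (SE 0.40, limma adjusted p = 0.00247), and 2.34 without NC24h replicate 6. ITGB1BP1, or ICAP-1, which binds the same tail and competes with talin, moved the other way, from 18.4, 20.2 and 22.2 to 14.6, 13.8 and 15.8 (log2 change -0.43, SE 0.09, with a limma adjusted p of 0.00797). LAYN, a talin-binding receptor for hyaluronan, had 1.34 ± 0.401 at 24 h and 0.773 ± 0.198 at 36 h and did not pass (log2 change -0.39, limma adjusted p = 0.0896). ITGBL1, a secreted protein related to β subunits, stayed between 0.058 and 0.791 and was not tested.

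Among the proteins that switch integrins on, talin-1 was lower and kindlin-2 higher at 36 h, both by small amounts. TLN1 had 126, 128 and 144 at 24 h and 112, 111 and 106 at 36 h (log2 change -0.27, SE 0.07, with a limma adjusted p of 0.0175). With median-ratio scaling this was -0.10 and the call was lost (adjusted p = 0.234), as it was without NC36h replicate 5 (0.0580) or NC36h replicate 6 (0.0548). FERMT2, encoding kindlin-2, had 71.4, 68.4 and 77.9 at 24 h and 89.8, 88.9 and 79.1 at 36 h (log2 change 0.24, SE 0.08, with a limma adjusted p of 0.0403). That call was lost in 8 of its 15 alternatives, with an adjusted p between 0.00491 and 0.134, among them the fits without NC24h replicates 4 or 5 and without NC36h replicates 4 or 5 (0.0905, 0.134, 0.115 and 0.133). TLN2, the talin typical of mature muscle, had 13.6 ± 0.914 and 12.5 ± 0.559 and did not pass (log2 change -0.11, limma adjusted p = 0.272). FERMT1, the kindlin of epithelia, was between 0.0631 and 0.253.

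The complex of ILK, PINCH and parvin sits on the β subunit tail and reaches actin through parvin. The mRNA of 3 of the 5 genes of this complex changed, where 50.9% of all genes tested did. ILK, the pseudokinase at its center, had 68.5, 70.7 and 75.6 at 24 h and 75.4, 74.9 and 76.8 at 36 h and did not pass (log2 change 0.08, 95% interval -0.06 to 0.22, limma adjusted p = 0.293), except with median-ratio scaling (0.26, adjusted p = 0.0101). Both parvins fell. PARVB had 27.8, 36.0 and 51.2 at 24 h and 19.2, 15.3 and 16.8 at 36 h (log2 change -1.08, SE 0.21, with a limma adjusted p of 0.00622). PARVA had 72.9, 82.8 and 99.1 at 24 h and 58.9, 54.2 and 53.5 at 36 h (log2 change -0.59, SE 0.11, with a limma adjusted p of 0.00612). In neither did the groups overlap, and NC24h replicate 6 was the highest library of both, without which the changes were -0.86 for PARVB and -0.48 for PARVA. LIMS1 and LIMS2 encode PINCH-1 and PINCH-2, which compete for the same site of ILK. LIMS2 rose from 32.7, 31.9 and 33.6 to 44.2, 44.9 and 56.4 (log2 change 0.55, SE 0.10, with a limma adjusted p of 0.00532), whereas LIMS1 had 64.0 ± 4.93 and 59.3 ± 1.004 and did not pass (log2 change -0.10, limma adjusted p = 0.245). The ratio of LIMS2 to LIMS1 within a library went from 0.513 ± 0.0401 to 0.817 ± 0.114, and that of PARVB to ILK from 0.531 ± 0.136 to 0.226 ± 0.0260 (SD, n = 3 each). These pairs were chosen after their values were seen and were not tested. Since the counting of reads shared between related genes was not stated, values of the near relatives LIMS1 and LIMS2 are less certain than others.

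SRC, a tyrosine kinase that signals from focal adhesions with FAK, was lower in all 3 later libraries than in any earlier one. Its FPKM was 46.3, 52.7 and 55.6 at 24 h and 20.3, 22.3 and 26.7 at 36 h, a fall by 1.13 on the log2 scale (SE 0.12, limma adjusted p = 0.00102), and by 0.96 with median-ratio scaling. FYN, a kinase of the same family, did not follow. It had 110, 121 and 119 at 24 h and 125, 128 and 124 at 36 h, a log2 change of 0.11 (95% interval -0.03 to 0.25, limma adjusted p = 0.162), or 0.29 with median-ratio scaling (adjusted p = 0.01002). The ratio of SRC to FYN thus went from 0.419, 0.437 and 0.468 to 0.162, 0.174 and 0.216, a pair again chosen after the values were seen. The scaffolds BCAR1, or p130Cas, and CRKL, which docks on it, stayed within their replicate spread (log2 change -0.10 and 0.07, limma adjusted p = 0.375 and 0.400), although CRKL passed with median-ratio scaling (0.25, adjusted p = 0.0423). PTK2B, the FAK relative PYK2, was between 0.150 and 0.345 and was not tested.

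**Figure D3:**
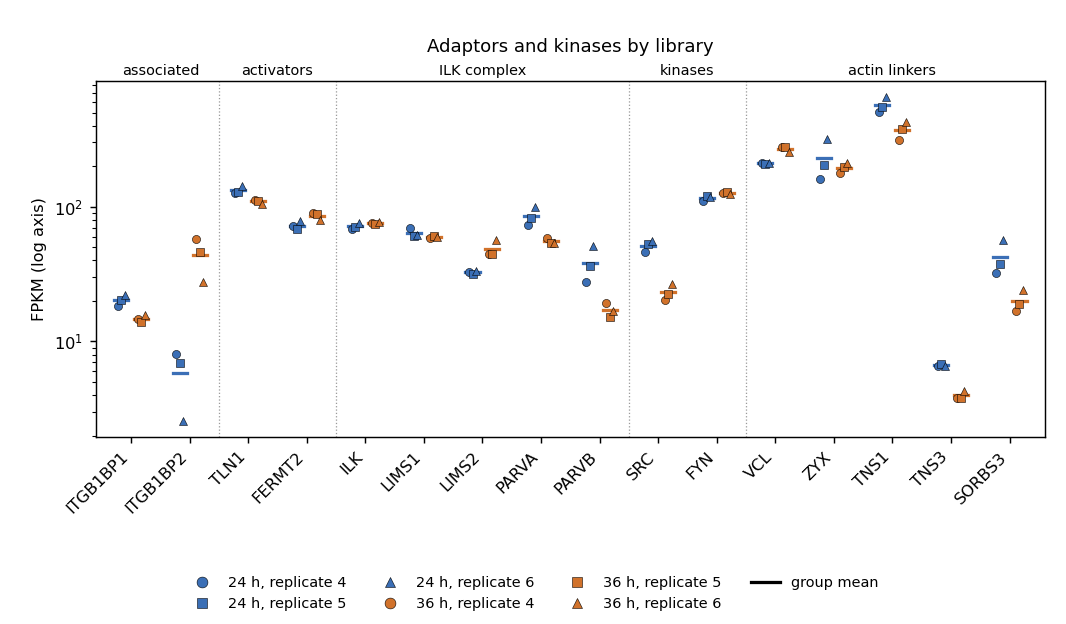
FPKM on a log axis (y axis) for 16 adaptors and kinases (x axis), with a point for each of the 6 libraries and a line at each group mean. ITGB1BP2, LIMS2 and VCL at 36 h lie above 24 h, and PARVB, SRC, TNS3 and SORBS3 lie below, in each case with no overlap.

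Of the linkers to actin, vinculin rose, whereas 2 tensins and vinexin fell. VCL, encoding vinculin, which binds talin and actin under tension, had 210, 209 and 211 at 24 h and 279, 276 and 255 at 36 h. The log2 change was 0.36 (SE 0.06, limma adjusted p = 0.00383) and 0.54 with median-ratio scaling. The ratio of VCL to TLN1, its binding partner, rose from 1.59 ± 0.105 to 2.47 ± 0.0426 (SD, n = 3 each). This pair, too, was chosen after the values were seen and was not tested. TNS1 and TNS3 encode tensins, which bind β subunit tails in mature adhesions. TNS1 had 508, 552 and 650 at 24 h and 313, 376 and 425 at 36 h (log2 change -0.62, SE 0.14, with a limma adjusted p of 0.0102), on a gene model of only 839 bases. Other genes described here also had short models, among them PARVB (884 bases), PARVA (1026), PTPN12 (879) and COL15A1 (914). Levels and ratios that compare different genes rest on these lengths. TNS3 fell from 6.56, 6.78 and 6.57 to 3.81, 3.80 and 4.31 (log2 change -0.62, SE 0.08, with a limma adjusted p of 0.00188). TNS2 had 18.8 ± 4.03 and 18.1 ± 4.33 and did not pass (log2 change -0.06, limma adjusted p = 0.825). SORBS3, or vinexin, a partner of vinculin, fell from 32.5, 37.9 and 56.8 to 16.97, 18.9 and 23.9 (log2 change -1.03, SE 0.22, with a limma adjusted p of 0.00841), and the change was -0.80 without NC24h replicate 6.

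ZYX, encoding zyxin, a protein of stretched stress fibers, was set by a single library. It had 161, 204 and 319 at 24 h, the last in NC24h replicate 6, and 177, 198 and 212 at 36 h. The groups overlapped and the log2 change was -0.17 (95% interval -0.72 to 0.39, limma adjusted p = 0.573), turning to 0.10 without that library. LPP, a relative of zyxin, was listed at 0 in 4 libraries and at 0.0706 and 0.112 in the others.

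**Figure D4:**
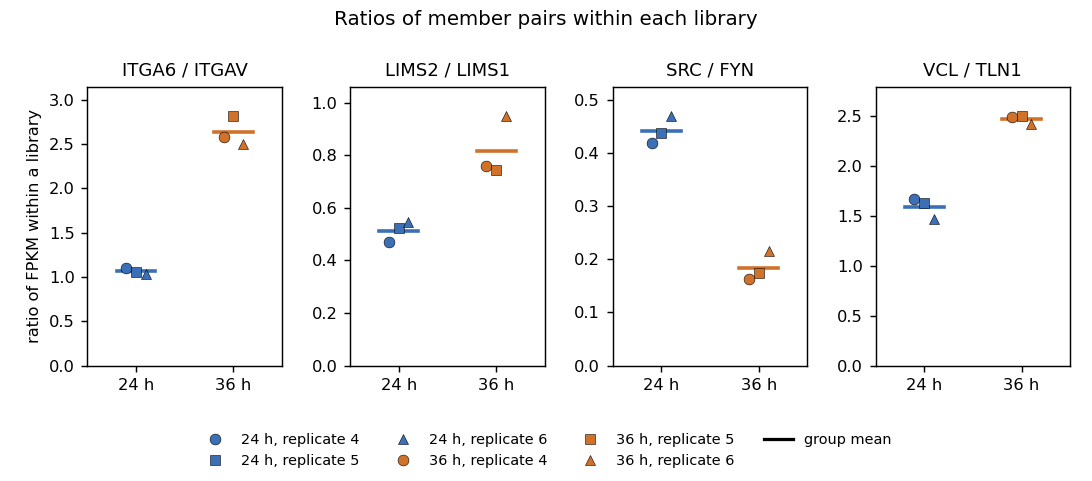
Ratio of the FPKM of a pair of members within each library (y axis, from 0) at 24 h and 36 h (x axis), with a line at each group mean. ITGA6 over ITGAV rose from 1.06 to 2.63 on average, LIMS2 over LIMS1 and VCL over TLN1 rose, and SRC over FYN fell, with no overlap in any panel. All pairs but ITGA6 over ITGAV were chosen after their values were seen and were not tested.

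The ligands of these receptors were taken from lists of laminin and basement membrane genes, of fibronectin and other RGD or integrin ligands, and of collagens. Of 8 basement membrane genes tested, 4 were higher and 1 lower at 36 h, with a median log2 change of 0.23. Of 14 fibronectin and related genes tested, 1 was higher and 7 lower, with a median of -0.46. Of 9 collagen genes, 5 were higher and 2 lower, with a median of 0.38. The background was 16.5% of genes higher and 34.4% lower, with a median of -0.16. Under median-ratio scaling, 4 basement membrane genes were higher and 0 lower, and 1 fibronectin or related gene was higher and 5 lower. Of the collagens, 6 were then higher and 1 lower, where 23.9% of all genes were higher and 22.2% lower.

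FN1, the ligand of α5β1 and of receptors with ITGAV, fell furthest, with 63.8, 69.9 and 75.8 at 36 h against 286 to 830 at 24 h (log2 change -2.68, limma adjusted p = 0.00192). The highest of the earlier values was that of NC24h replicate 6, in which ITGAV, ITGA8 and ITGA3 were highest too, and without it the change of FN1 was -2.25. TNC, encoding tenascin-C, had 69.2, 77.8 and 115 at 24 h and 29.7, 27.1 and 26.8 at 36 h (log2 change -1.58, SE 0.18, with a limma adjusted p of 0.00129), and -1.37 without NC24h replicate 6. THBS1 and THBS2, the thrombospondins, and LTBP1, which holds latent TGF-β in the matrix, fell by 1.37, 0.78 and 0.62 on the log2 scale (limma adjusted p = 0.00653, 0.0168 and 0.0297). The fall of THBS2 was lost without NC24h replicate 5 (0.0504) or NC36h replicate 4 (0.0525), and that of LTBP1 with median-ratio scaling (0.0601), quantile normalization (0.0673) or no filter (0.0502), without NC24h replicate 5 (0.0637) and without any of the 36 h libraries (0.0622, 0.0783 and 0.0868). The fibroblast markers DCN and LUM fell over the same interval (log2 change -1.48 and -1.19), while POSTN and COL3A1 rose, and their part in these results was not tested.

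On the laminin side, LAMA4, an α chain of vessel and embryonic muscle laminins, had 8.17, 7.07 and 1.85 at 24 h and 18.5, 14.5 and 14.6 at 36 h (log2 change 1.49, SE 0.42, with a limma adjusted p of 0.0245). Its low value belonged to NC24h replicate 6, without which the change was 0.96 (adjusted p = 0.00175), and the call was lost without any of the 36 h libraries (0.0778, 0.0630 and 0.0574). NID1, encoding nidogen-1, which joins laminin to type IV collagen, rose from 7.44, 7.34 and 6.64 to 23.5, 18.8 and 15.8 (log2 change 1.31, SE 0.14, with a limma adjusted p of 0.00117). COL4A2, of type IV collagen, rose most firmly, from 26.9, 25.4 and 22.3 to 84.2, 80.3 and 76.9 (log2 change 1.66, SE 0.08, with a limma adjusted p of 0.000586). Among the other collagens, COL15A1, of a collagen at the outside of the basement membrane, and COL3A1, a fibrillar collagen, rose by 0.93 and 0.87 (limma adjusted p = 0.00174 and 0.00446). The 2 collagen genes that were lower, where 5 were higher, are named after their values were seen. COL1A2 and COL5A2 fell by 0.62 and 0.42 (limma adjusted p = 0.00365 and 0.0129). The call of COL5A2 was lost with median-ratio scaling (0.0504) and without NC36h replicate 5.

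The chains of laminin itself did not move as a block. These were named after their values were seen. LAMB2, the β chain of synaptic and adult muscle laminins, rose from 54.0 ± 1.83 to 72.0 ± 3.16 (log2 change 0.41, limma adjusted p = 0.00264). LAMB1, the β chain that it replaces, fell from 80.0 ± 13.5 to 55.9 ± 5.60 (log2 change -0.50, limma adjusted p = 0.0181), a call lost with median-ratio scaling (0.0521) and without NC36h replicates 5 or 6 (0.0672 and 0.0575). LAMC1, the shared γ chain, had 57.6 ± 3.59 and 57.3 ± 5.92. Set against LAMC1 in the same library, FN1 went from 8.55 ± 4.34 to 1.24 ± 0.226 times its level (SD, n = 3 each).

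**Figure D5:**
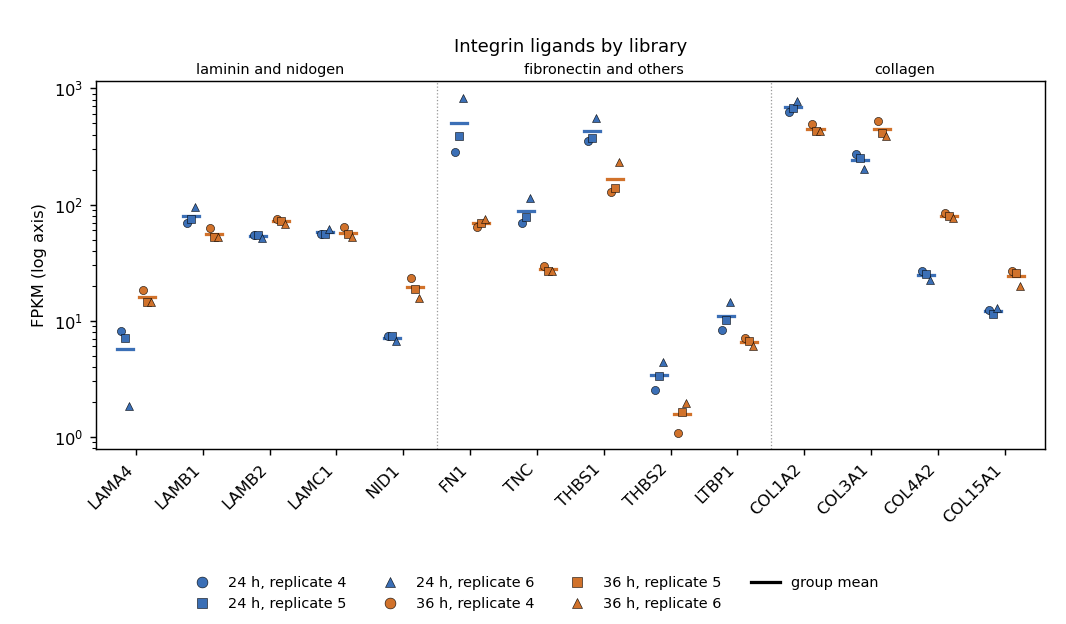
FPKM on a log axis (y axis) for 14 integrin ligands (x axis), grouped as laminin and nidogen, fibronectin and others, and collagens, with a point for each of the 6 libraries and a line at each group mean. FN1, TNC, THBS1, THBS2, LTBP1, LAMB1 and COL1A2 lie lower at 36 h, and LAMA4, LAMB2, NID1, COL3A1, COL4A2 and COL15A1 lie higher.

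The secreted integrin ligands CCN1 and CCN2, also named after their values were seen, were set by NC36h replicate 6. CCN1 had 82.04, 83.4 and 99.3 at 24 h and 48.8, 64.8 and 381 at 36 h, and CCN2 had 199, 178 and 168 at 24 h and 93.7, 142 and 474 at 36 h. Neither passed the test on all libraries (limma adjusted p = 0.765 and 0.968). Without NC36h replicate 6 the log2 changes were -0.64 for CCN1 and -0.65 for CCN2 (adjusted p = 0.0214 and 0.0377). In that library ITGB1BP2 was the lowest of its group and LIMS2 and SRC were the highest.

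Downstream of the adhesions, 27 actin effectors were tested, 4 of them higher and 15 lower than at 24 h, where 16.5% of all genes were higher and 34.4% lower. Their median log2 change was -0.26 against -0.16 for all genes. With median-ratio scaling the same list had 4 higher and 8 lower, beside 23.9% and 22.2% of all genes. Among the falls were those of PTPN12, or PTP-PEST, a phosphatase that acts on p130Cas (36.3, 38.5 and 52.6 to 21.6, 19.0 and 20.5, log2 change -1.01, limma adjusted p = 0.00221) and of CSRP1, a LIM protein that binds α-actinin and zyxin (log2 change -0.94, limma adjusted p = 0.00148). PTPN11, the phosphatase SHP2, and CSRP2, a relative of CSRP1, fell by 0.77 and 0.74 (limma adjusted p = 0.000692 and 0.000752). The rises were in NEXN, an actin-binding protein of the Z-disc, FHL3, a LIM protein of muscle, and FLNC, the muscle filamin, at 0.64, 0.58 and 0.47 (limma adjusted p = 0.0143, 0.00993 and 0.0365). FLNC went from 724 ± 144 to 991 ± 31.0 (SD, n = 3 each), and its log2 change was 0.30 without NC24h replicate 6. The call of NEXN was lost without NC36h replicate 5 (0.0515). That of FLNC was lost with no filter (0.0674), without NC24h replicate 5 (0.0515) and without NC36h replicates 4, 5 or 6 (0.0936, 0.103 and 0.0739). The fourth rise was in PDLIM5 (0.59, limma adjusted p = 0.0359), whose groups overlapped. Its call was lost with no filter and with the replicate number as a block (0.0670). It was also lost without NC24h replicates 4 or 5 and without NC36h replicates 4 or 5, and its adjusted p reached 0.110 over the alternatives.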

How the data were processed

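Total RNA of the 6 NC libraries was sequenced as paired-end Illumina reads. The authors deposited FPKM values, a column per library and none pooled, and no column was left unused (0). The study's methods name HISAT2, StringTie and HTSeq on Sscrofa11.1, and the submitters' processing notes name TopHat2, Cufflinks and HTSeq. Strandedness was not given in the sources used here. The highest Ensembl number in the table is 31070, and 3819 identifiers of the Sscrofa11.1 name table lie above it, those of the 8 unmatched members included, so the gene set may be older than the named build and no coordinates are given.

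Symbols were paired with 11804 of 25322 Ensembl identifiers. The test was limma 3.58.1 (R 4.3.3), two-sided and with an intensity trend in eBayes, applied to log2(FPKM + 1) of each gene whose FPKM averaged 1 or more. Whole fragments were recovered from the FPKM steps for 19542 of 19543 genes above 0 in at least 3 libraries, and covered at least 99.7% of each implied total. Gene lengths are those implied by these steps.

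The members, gene lists and roles were chosen with earlier results of these data known. Named were the integrin subunits with a mean FPKM of at least 1, in each other role the called members without overlap or with a mean of at least 100, and of the ligand and the effector lists the 5 largest rises and falls called without overlap. A gene that this rule names among the effectors is not reported here. The other members are given because the set is described whole. Likeness between members is not given, because the libraries form 2 clusters.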

Additional observations from a re-analysis of the deposited data

How the results depend on the processing

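All 19 members that changed kept their direction under the 15 alternatives, and 14 were called in every alternative that tested them. The alternatives were other pseudocounts (0.1 and 0.01), filters (none, or a mean FPKM of at least 5), scalings (median ratio and quantile), eBayes without trend, the replicate block, limma voom on recovered fragments and leaving out each library. Because the groups of all 19 did not overlap, pseudocounts, filters, the trend, the block and leaving out a library could not turn the direction. The share of all genes called in every alternative is not given here. The number of members called was between 14 and 19 without a library and 22 with median-ratio scaling, which gave 10 higher members against 6. Over all genes that scaling gave a median log2 change of -0.003, with 3365 genes higher and 3123 lower against 2322 and 4834. Small changes then turned, to 0.108 for ITGA6, 0.119 for ITGB8, 0.0584 for TLN2, 0.0701 for LIMS1, 0.0737 for BCAR1, 0.0098 for ZYX, 0.11 for TNS2 and 0.164 for LAMC1. Quantile normalization gave 0.154 for ITGB8, 0.0420 for TLN2 and 0.0385 for TNS2. Leaving out a library gave -0.182 to 0.115 for ITGA6, -0.0068 to 0.134 for ITGA5, -0.0884 to 0.221 for ITGB6, -0.11 to 0.108 for ITGB8, -0.386 to 0.102 for ZYX, -0.225 to 0.102 for TNS2, -0.0894 to 0.0526 for LAMC1, -0.636 to 0.834 for CCN1 and -0.647 to 0.517 for CCN2. The fibronectin-binding median was -1.26 at a mean FPKM of at least 5, where ITGA4 is not tested. The collagen-binding median was 0.396 at that minimum, where ITGA11 alone is tested. It was -0.321 and -0.341 with pseudocounts of 0.1 and 0.01, -0.0936 under median-ratio scaling, -0.0592 under quantile normalization and -0.334 with voom, and the cause was not tested. The laminin-binding share rose by 10.2 percentage points on recovered fragments and changed by -0.96 without ITGAV.

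Same-numbered libraries deviated together in part only (r across genes 0.15, -0.02 and 0.18 for replicates 4, 5 and 6), so the numbers were not taken as pairs. With the replicate block 18 members were called, FERMT2 being lost (adjusted p = 0.0754), and 7034 genes against 7156. With 3 libraries per group the exact test cannot pass 0.05, and genes with a mean under 1 FPKM over the 6 libraries were not tested.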
